A study of Mus musculus with 60 samples.

Results

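The 7 genes described here encode interleukin-1 ligands, their antagonist and the receptors of the family that were on the panel, and they were found by their symbols among the 770 genes of the deposited matrix. They are the ligands Il1a and Il1b, the antagonist Il1rn, the signalling receptor Il1r1, its partner chain Il1rap, the decoy receptor Il1r2 and the interleukin-36 receptor Il1rl2. All 7 had a value in each of 56 brain samples. The mice were adult female Balb/C, 13 weeks old at collection, and were kept in 14 h of light and 10 h of darkness. Tumor-bearing mice had received 67NR cells in the inguinal mammary glands, and vehicle injected mice had received the culture medium DMEM alone. 67NR is a non-metastatic mouse mammary carcinoma line derived from 1 tumor, so all tumors share 1 source. Hippocampus, hypothalamus and brain stem were taken on day 25 after injection, at mid-dark (ZT19, hours after lights on) or mid-light (ZT7), from 5 mice in each of the 4 groups, 20 mice in all. All mice were perfused with saline before the brain was removed.

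Interleukin-1 alpha and beta both bind the receptor IL1R1, which then recruits the accessory chain IL1RAP and signals through MyD88 and IRAK kinases to NF-kB and MAP kinases. Signalling is held back at the surface by the antagonist IL1RN, which occupies IL1R1 without recruiting the accessory chain, and by IL1R2, which binds ligand but has no signalling domain. In the brain IL1R1 is known from endothelial cells and from some neurons, with dense message in the hippocampal dentate gyrus, and interleukin-1 is known as a mediator of fever and sickness behaviour.

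The receptor genes Il1r2, Il1r1 and Il1rl2 lie on mouse chromosome 1 with no other protein-coding gene between them in the RefSeq annotation of GRCm38.p6, at chr1:40084692-40125230, chr1:40222480-40316201 and chr1:40324589-40367555. Il1rap lies on another chromosome, at chr16:26581509-26730128. Il1a and Il1b are neighbouring protein-coding genes at chr2:129299609-129310186 and chr2:129364569-129371164, and Il1rn lies on the same chromosome at chr2:24336860-24351491. The 250 bases before the starts listed for the 3 receptor neighbours in the RefSeq promoter table follow, because Il1r1 was the member that differed with tumor status and the genes on either side of it were not called. That table lists a pair of starts for Il1r1, and all windows are on the plus strand. The starts listed for Il1r1 and Il1r2 lie inside the spans given above, so the stretch before the outer end of either span is not shown. The windows are chr1:40085843-40086092 for Il1r2, chr1:40224830-40225079 and chr1:40266336-40266585 for Il1r1, and chr1:40324339-40324588 for Il1rl2. Capitals mark matches to any of 4 motifs searched on both strands, NF-kB (by its consensus of 10 letters), AP-1 (TGANTCA), STAT (TTCNNNGAA) and E-box (CACGTG). The sequences are those of the RefSeq reference strain C57BL/6J, read 5′ to 3′.
Il1r2: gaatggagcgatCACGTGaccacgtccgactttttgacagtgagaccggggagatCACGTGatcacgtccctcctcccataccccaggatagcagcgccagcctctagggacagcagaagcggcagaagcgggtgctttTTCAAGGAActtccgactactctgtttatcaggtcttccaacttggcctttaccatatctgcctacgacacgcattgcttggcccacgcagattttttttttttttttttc
Il1r1, upstream start: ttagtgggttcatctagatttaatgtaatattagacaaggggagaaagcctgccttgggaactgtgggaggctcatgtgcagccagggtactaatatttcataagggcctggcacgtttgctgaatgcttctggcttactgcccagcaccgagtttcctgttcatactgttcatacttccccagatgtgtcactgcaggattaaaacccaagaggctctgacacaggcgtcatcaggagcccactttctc
Il1r1, downstream start: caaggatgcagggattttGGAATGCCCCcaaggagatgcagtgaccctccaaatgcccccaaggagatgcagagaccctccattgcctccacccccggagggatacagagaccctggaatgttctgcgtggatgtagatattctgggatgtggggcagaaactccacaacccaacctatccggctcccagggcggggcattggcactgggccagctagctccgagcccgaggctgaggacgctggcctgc
Il1rl2: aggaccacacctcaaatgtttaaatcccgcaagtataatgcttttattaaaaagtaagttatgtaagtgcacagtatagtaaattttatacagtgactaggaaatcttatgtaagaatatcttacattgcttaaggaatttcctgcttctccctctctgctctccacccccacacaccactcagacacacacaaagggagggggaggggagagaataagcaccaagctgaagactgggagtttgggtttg
The window of the downstream Il1r1 start held 1 NF-kB match, which began 232 bases before the start, and the window of the upstream start held no match. The Il1r2 window held 2 E-boxes and 1 STAT match, and the Il1rl2 window held none. Among 32851 promoter windows of the same length, 7.25% held an NF-kB match, 6.75% an AP-1 match, 7.02% a STAT match and 6.02% an E-box. A match describes letters in the window and does not show that a factor binds there.

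The panel counts molecules with gene-specific probes, and the deposited values are log2 expression values after quantile normalization, so sample medians lay between 8.07 and 8.09. Values were analysed for 20 hippocampus, 17 hypothalamus and 19 brain stem samples. The depth of a sample is not known from these values, so precision comes from how many mice were measured. Forebrain excitatory neuron markers were highest in the hippocampus. The choroid plexus marker Ttr ranged from 5.36 to 14.71 in hippocampus and from 6.49 to 13.77 in brain stem samples, and stayed between 4.33 and 5.34 in the hypothalamus. Several members were measured near the low end of the scale. Il1rn was under a log2 value of 4 in 53 of the 56 samples, Il1b in 16, Il1r2 in 14, Il1a in 2 and Il1rl2 in 1, while Il1r1 and Il1rap were never that low.

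The first question was which members differed between tumor-bearing and vehicle injected mice. Il1r1 was higher in the brain stem of tumor-bearing mice and over the 3 regions together, and no other member passed adjustment. A gene was called when its limma p value, adjusted by the Benjamini-Hochberg method for every gene in the comparison, was under 0.05. By that rule 1 of 7 members was called in the brain stem, where 1.04% of the 769 genes tested were called. In the hippocampus and in the hypothalamus 0 of 7 were called, against 0.52% and 0.26% of all genes. At an unadjusted p value under 0.05, Il1rl2 stood out in the hippocampus (6.37% of all genes did), Il1r1 in the hypothalamus (7.14%), and Il1r1 and Il1a in the brain stem (6.5%). Within single phases 0 of 7 were called in the hippocampus, against 0.13% of genes at mid-dark and 0.13% at mid-light, and 0 of 7 in the hypothalamus, against 0% and 0%. Over the 3 regions 1 of 7 was called, against 2.34% of 770 genes. The median difference of the 7 members was 0.01 in the hippocampus, 0.04 in the hypothalamus and 0.04 in the brain stem on the log2 scale, and the median of all genes was -0.01, 0.00 and -0.01.

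**Figure D1:**
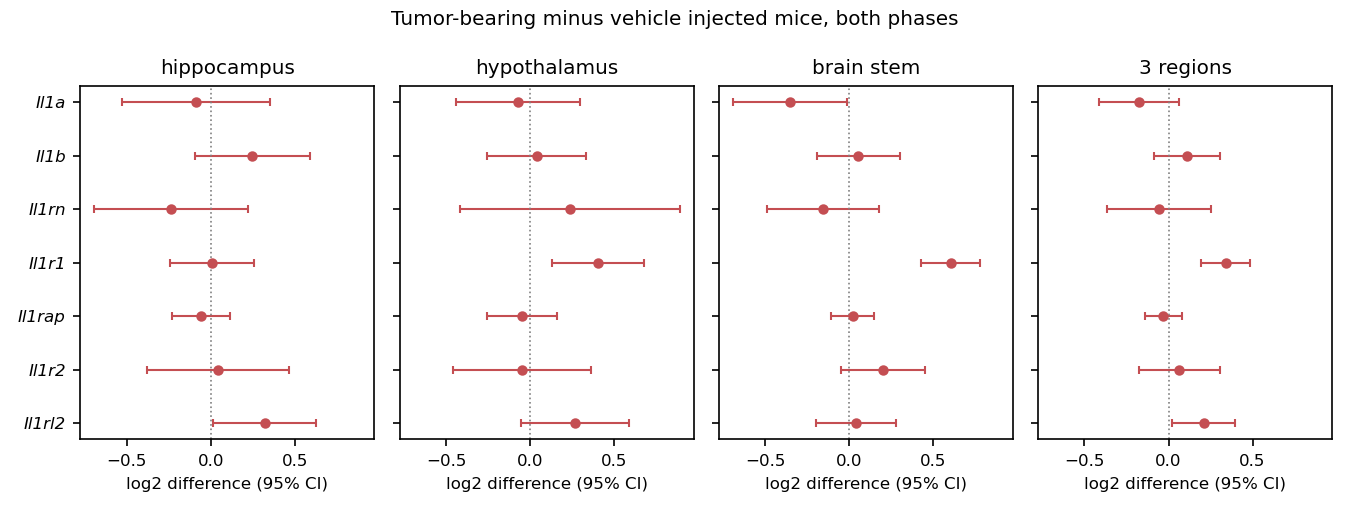
Tumor-bearing minus vehicle injected mice for the 7 members, averaged over both phases. Points are log2 differences from the limma fit and bars their 95% confidence intervals, in each region and over the 3 regions. The Il1r1 interval lies well above 0 in the brain stem, from 0.43 to 0.78, and spans 0 in the hippocampus, from -0.24 to 0.26.

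Il1r1 encodes the receptor chain that binds both ligands and starts the signal. In brain stem at mid-dark its log2 values were 6.86, 7.02, 7.04 and 7.19 in vehicle injected mice and 7.38, 7.53, 7.59, 7.65 and 7.73 in tumor-bearing mice. At mid-light they were 6.95, 6.96, 7.13, 7.19 and 7.39 in vehicle injected mice and 7.36, 7.75, 7.84, 7.97 and 8.00 in tumor-bearing mice. The groups did not overlap at mid-dark, a pattern found for 2.34% of all genes in that comparison, and at mid-light the lowest tumor-bearing mouse fell just below the highest vehicle injected mouse. Averaged over the phases, Il1r1 was 0.60 higher on the log2 scale in tumor-bearing mice (SE 0.083, adjusted p = 2.95e-04), a 1.52-fold difference that ranked 3 of 769 genes by p value. The difference was 0.55 at mid-dark (SE 0.12, adjusted p = 0.0554) and 0.66 at mid-light (SE 0.11, adjusted p = 0.00756), where 0.26% and 0.78% of genes were called. The tumor effect at mid-dark minus that at mid-light was -0.11 (95% CI -0.47 to 0.24, adjusted p = 0.999), in a comparison in which 0% of genes were called. With only the 2 groups compared in the fit, the adjusted p was 0.0397 at mid-dark and 0.0838 at mid-light, so the phase that passed was the other one. With 1 mouse left out at a time, the mid-dark difference passed in 3 of 19 fits, without mouse 2, 5 or 9 (adjusted p = 0.0494, 0.00831 and 0.0465). These were mid-light mice, so the mid-dark difference itself stayed at 0.55. It passed in no fit that left out a mid-dark mouse, and without mouse 12 the adjusted p was 0.328.

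**Figure D2:**
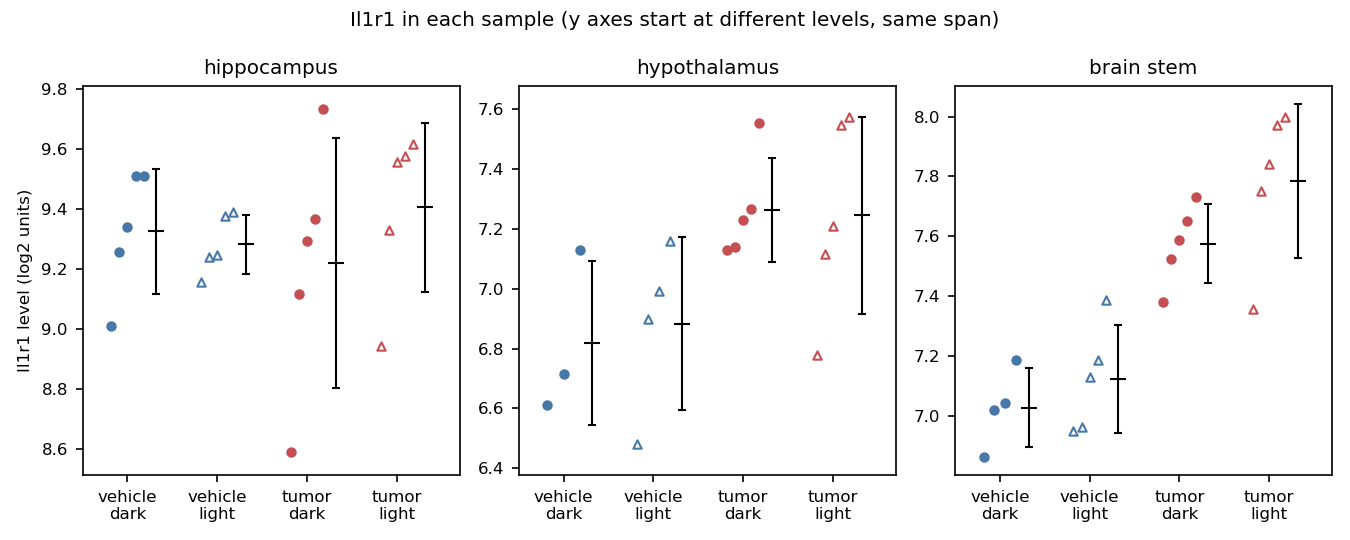
Il1r1 log2 level in each sample by region, tumor status and phase. Each point is 1 mouse, the black marks are group means with SD, and the 3 vertical axes start at different levels but have the same span. The 10 tumor-bearing brain stem samples lie between 7.36 and 8.00 and the 9 vehicle injected samples between 6.86 and 7.39.

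Other measures of the brain stem samples are given beside this difference. The absorbance ratio of the RNA at 260 and 280 nm was 1.34 to 1.99 (median 1.88) in tumor-bearing and 1.72 to 2.01 (median 1.96) in vehicle injected mice, and with that ratio as a covariate the Il1r1 difference was 0.62 (adjusted p = 0.00265). At mid-dark alone the ratio was 1.34 to 1.99 (median 1.68) in tumor-bearing and 1.95 to 2.01 (median 1.975) in vehicle injected mice. At mid-light both medians were 1.96. The mid-dark groups of the brain stem thus differed in this ratio as well as in tumor status. The median of Ttr was 12.24 with tumors and 9.99 with vehicle, both groups reaching 13.77, and the fitted difference of 0.60 (SE 1.20, adjusted p = 0.991) did not pass. With Ttr as a covariate the Il1r1 difference was 0.62 (adjusted p = 1.28e-04). The summed level of 8 endothelial markers was 10.80 to 11.29 (median 11.08) in tumor-bearing and 10.95 to 11.21 (median 11.18) in vehicle injected mice, with 0 of the 8 called in the brain stem. Over the 3 regions the endothelial junction gene Esam was higher by 0.14 (adjusted p = 0.0179, lost without mouse 6 or 7, at up to 0.065) and the endothelial sialomucin gene Emcn lower, with a difference of -0.21 (adjusted p = 0.0099). The part of endothelial content in the Il1r1 difference was not tested. In bulk tissue, fewer cells of a type and less RNA per cell cannot be told apart. Of the microglia, astrocyte, neuron, oligodendrocyte, monocyte and macrophage, neutrophil, T cell and B cell markers, 0 were called in the brain stem.

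In the hypothalamus Il1r1 was 6.61, 6.71 and 7.13 in vehicle injected mice and 7.13, 7.14, 7.23, 7.27 and 7.56 in tumor-bearing mice at mid-dark. At mid-light it was 6.48, 6.90, 6.99 and 7.16 in vehicle injected mice and 6.78, 7.12, 7.21, 7.55 and 7.58 in tumor-bearing mice. Most tumor-bearing mice lay above most vehicle injected mice, but the groups overlapped. The difference of 0.40 (SE 0.13, 95% CI 0.13 to 0.68) ranked 9 of 770 genes and did not pass adjustment (adjusted p = 0.365).

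In the hippocampus the Il1r1 groups lay on top of each other. Tumor-bearing mice ranged from 8.59 to 9.73 (median 9.35) and vehicle injected mice from 9.01 to 9.51 (median 9.30). The difference was 0.01 (SE 0.12, 95% CI -0.24 to 0.26, adjusted p = 0.989). Over the 3 regions, with the mouse as a block, Il1r1 was 0.34 higher in tumor-bearing mice (SE 0.071, adjusted p = 0.00191), rank 8 of 770.

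Whether the tumor effect itself differed between regions was tested directly. For Il1r1 the effect in the brain stem exceeded that in the hippocampus by 0.60 (SE 0.14, 95% CI 0.32 to 0.89), rank 1 of 770 genes by limma's p value of 9.96e-05. It did not pass adjustment (adjusted p = 0.0752), and 0% of genes were called. With the mouse as a fixed block in place of a random one the value was 0.63 and passed (adjusted p = 0.0141), and without the mouse block the adjusted p was 0.161. With 1 mouse left out at a time, this difference passed in 3 of 20 fits, without mouse 2, 8 or 11 (adjusted p = 0.0313, 0.0378 and 0.0208). In the other fits it did not pass, and the adjusted p reached 0.395. The effect in the hypothalamus exceeded that in the hippocampus by 0.39 (adjusted p = 0.729), and that in the brain stem exceeded the hypothalamus by 0.22 (adjusted p = 0.999). The other 6 members had adjusted p values of at least 0.948 in the 3 tests of this kind.

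Il1rap encodes the accessory chain that IL1R1 needs to signal. Its level differed little with tumor status in any region. In brain stem it was 9.81 to 10.21 in vehicle injected and 9.85 to 10.20 in tumor-bearing mice, a difference of 0.02 (95% CI -0.11 to 0.15). The hippocampal difference was -0.06 (95% CI -0.23 to 0.12) and the hypothalamic difference -0.05 (95% CI -0.26 to 0.16). These intervals exclude a rise of the size seen for Il1r1 in brain stem.

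Il1a encodes interleukin-1 alpha, which is active without cleavage and is often bound to the cell that makes it. In brain stem at mid-dark it was 5.05, 5.14, 5.39 and 5.48 in vehicle injected mice and 4.75, 4.83, 4.85, 5.04 and 5.17 in tumor-bearing mice. At mid-light it was 4.65, 4.88, 5.08, 5.29 and 5.37 in vehicle injected mice and 3.62, 4.83, 4.90, 4.99 and 5.10 in tumor-bearing mice. Tumor-bearing mice tended to the lower end at both times with overlap, and the mid-light value of 3.62 stood far below the rest of its group. The brain stem difference was -0.35 (SE 0.16, 95% CI -0.69 to -0.01) and did not pass adjustment (adjusted p = 0.744). Without mouse 1, whose value was 3.62, it was -0.22. Differences were -0.09 in the hippocampus and -0.07 in the hypothalamus, with 95% CIs of -0.53 to 0.35 and -0.44 to 0.30.

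Il1b encodes interleukin-1 beta, the form secreted after cleavage by caspase-1. In brain stem at mid-dark it was 3.78, 4.46, 4.52 and 4.92 in vehicle injected mice and 4.77, 4.82, 4.84, 4.88 and 4.99 in tumor-bearing mice. At mid-light it was 4.56, 4.73, 4.78, 4.83 and 4.85 in vehicle injected mice and 4.01, 4.35, 4.45, 4.59 and 4.72 in tumor-bearing mice. Tumor-bearing mice were thus mostly higher at mid-dark and mostly lower at mid-light. The difference was 0.44 at mid-dark (SE 0.17, adjusted p = 0.595) and -0.33 at mid-light (SE 0.16, adjusted p = 0.976). Without mouse 12 the mid-dark difference was 0.22. The tumor effect at mid-dark minus that at mid-light was 0.77 (SE 0.23, 95% CI 0.28 to 1.25), which ranked 5 of 769 genes by its p value of 0.00412 in limma and did not pass adjustment (adjusted p = 0.634). Averaged over phases the brain stem difference was 0.05 (95% CI -0.19 to 0.30). In the hippocampus it was 0.25 (95% CI -0.09 to 0.59) and in the hypothalamus 0.04 (95% CI -0.26 to 0.33).

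Il1rn, the antagonist, lay at the low end of the scale throughout, from 1.87 to 4.31, and its interval in the comparison over the 3 regions, -0.36 to 0.25, was the widest of the 7 genes. The tumor difference was -0.24 in the hippocampus, 0.24 in the hypothalamus and -0.16 in the brain stem, with adjusted p values of 0.923, 0.882 and 0.977. Il1r2, the decoy, differed by 0.04, -0.05 and 0.20 in the same order, with adjusted p values of 0.973, 0.965 and 0.88. Neither inhibitor passed in a tumor comparison, and their 95% CIs reached 0.89 for Il1rn in the hypothalamus and 0.47 for Il1r2 in the hippocampus.

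Il1rl2 encodes the receptor for interleukin-36 cytokines and also pairs with IL1RAP. In hippocampus at mid-dark it was 3.62, 4.27, 4.52, 4.85 and 4.95 in vehicle injected mice and 4.83, 4.98, 4.99, 5.00 and 5.12 in tumor-bearing mice. At mid-light it was 4.46, 4.49, 4.64, 5.09 and 5.22 in vehicle injected mice and 4.64, 4.70, 4.82, 5.12 and 5.14 in tumor-bearing mice. The mid-dark groups met at their edges and the mid-light groups overlapped throughout. The hippocampal difference was 0.32 (SE 0.15, adjusted p = 0.777), with 0.54 at mid-dark (SE 0.21, adjusted p = 0.621). Without mouse 32 the mid-dark difference was 0.33. The difference over both phases was 0.26 in the hypothalamus and 0.04 in the brain stem, and 0.21 over the 3 regions (SE 0.093, adjusted p = 0.397).

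**Figure D3:**
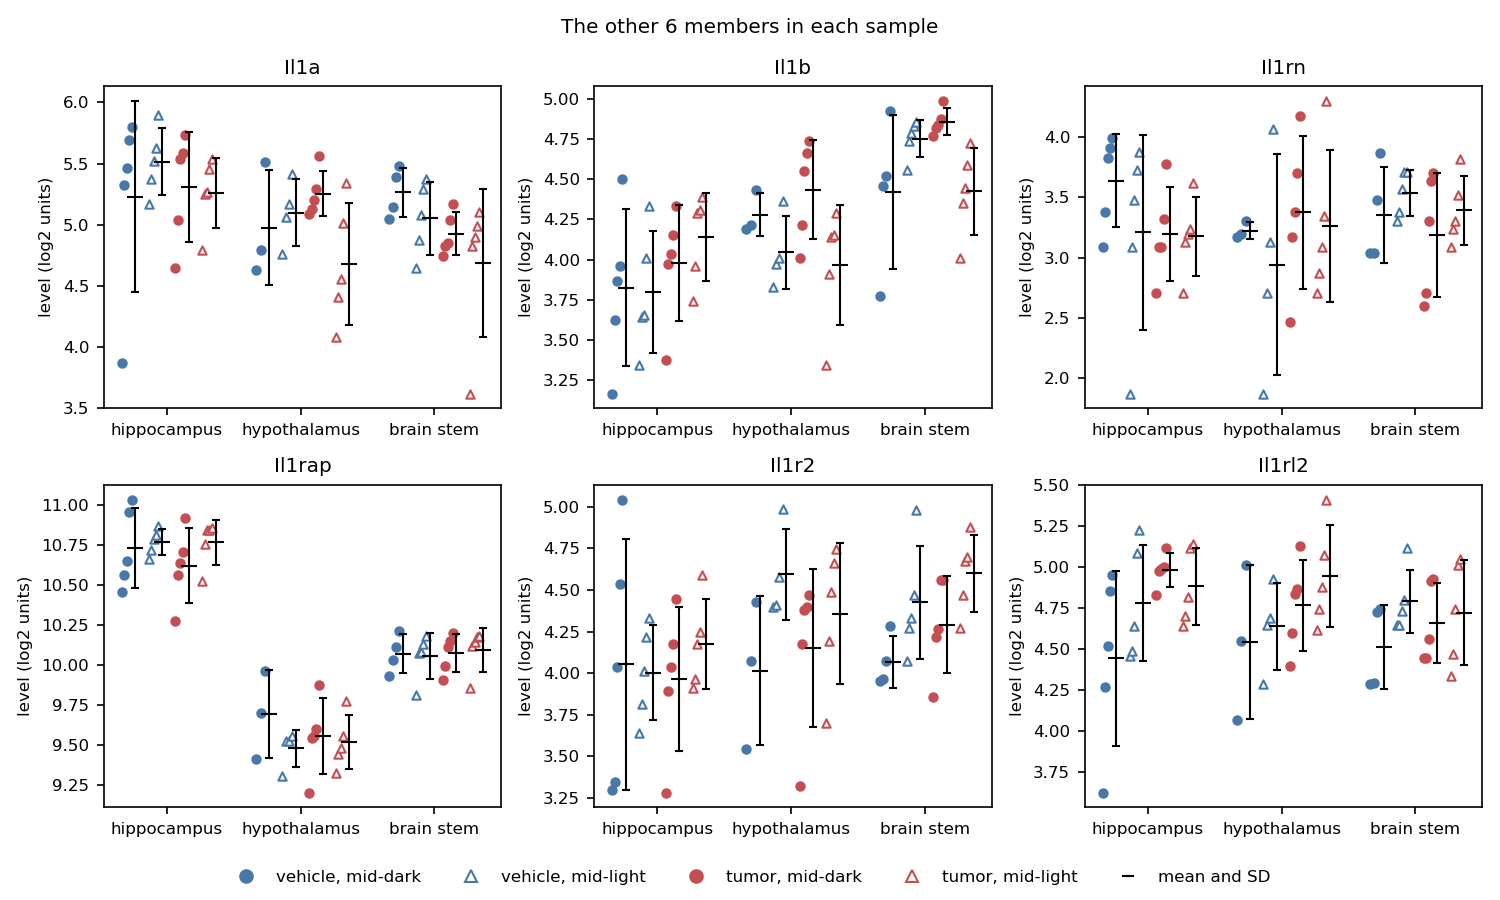
Log2 level of the other 6 members in each sample, grouped by region, tumor status and phase, with group means and SD in black. Each panel has its own axis. Il1rap separates the hippocampus from the other regions, with every hippocampus sample at or above 10.27. Every hypothalamus sample lies at or below 9.96, and brain stem samples, from 9.81 to 10.21, overlap them.

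The second question was the time of day. No member was called for mid-dark against mid-light in either tumor group of any region, nor over the 3 regions, where 13.5% of genes were called. Within regions the share of genes called was 2.34% in vehicle injected and 1.04% in tumor-bearing mice for the hippocampus, 0.26% and 1.04% for the hypothalamus, and 1.3% and 0.78% for the brain stem. At an unadjusted p value under 0.05, 3 of the within-region differences stood out, all in tumor-bearing mice and all of the ligands, where 9.74% of genes did so in the hypothalamus and 10.1% in the brain stem. Il1b was higher at mid-dark by 0.43 in the brain stem (SE 0.16, adjusted p = 0.311), and the values above show that its mid-dark and mid-light samples did not overlap there, as was true of 2.34% of genes. It was higher by 0.47 in the hypothalamus (SE 0.18, adjusted p = 0.345), where mid-dark values were 4.01, 4.22, 4.55, 4.66 and 4.73 and mid-light values 3.35, 3.91, 4.14, 4.15 and 4.29. Il1a was higher at mid-dark by 0.57 in the hypothalamus (SE 0.22, adjusted p = 0.366), with mid-dark values of 5.09, 5.13, 5.20, 5.29 and 5.56 and mid-light values of 4.08, 4.41, 4.56, 5.01 and 5.34. Mid-dark mice were mostly above mid-light mice in both cases, with overlap.

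In vehicle injected mice, with 3 to 5 samples in these groups, the same ligand differences did not reach an unadjusted p value under 0.05. Il1b differed by -0.33 (95% CI -0.69 to 0.02) in the brain stem and by 0.24 (95% CI -0.22 to 0.69) in the hypothalamus, and Il1a in the hypothalamus by -0.12 (95% CI -0.69 to 0.44). The hypothalamic Il1b difference had the direction seen in tumor-bearing mice, and its interval includes their 0.47, while the others had the opposite sign. The test that compares the phase difference between tumor groups did not pass for either ligand in any region (adjusted p from 0.634 to 1). Il1r2, which binds ligand without signalling, had a mid-dark minus mid-light difference of -0.27 over the 3 regions (SE 0.12, 95% CI -0.51 to -0.03) and did not pass adjustment (adjusted p = 0.127). With values under 4 raised to 4 it was -0.17. Il1r1 differed between phases by -0.08 over the 3 regions (95% CI -0.23 to 0.06), and Il1rap by 0.01 (95% CI -0.10 to 0.12).

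**Figure D4:**
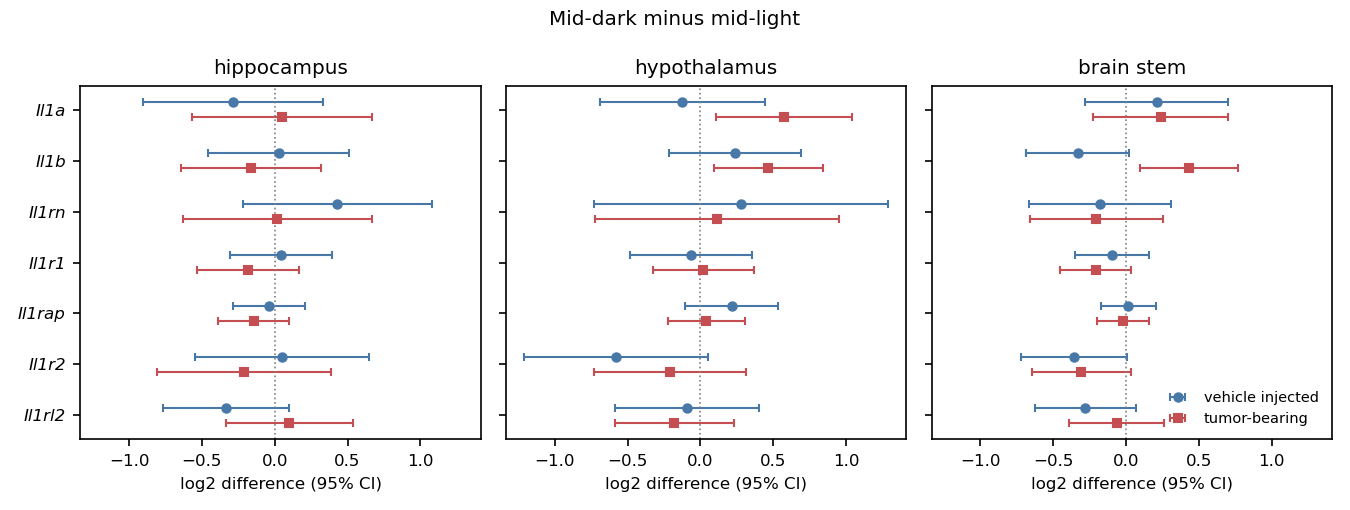
Mid-dark minus mid-light for the 7 members in each region, with vehicle injected mice as circles and tumor-bearing mice as squares. Points are log2 differences from the limma fit and bars 95% confidence intervals. In the brain stem the Il1b points of the tumor groups lie on opposite sides of 0, at 0.43 and -0.33.

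Levels of each gene were then compared between regions in vehicle injected mice. The receptor and its accessory chain were both highest in the hippocampus, while Il1b was lowest there. Of the 7 members 3 were called for hippocampus against hypothalamus, 3 for hippocampus against brain stem and 2 for brain stem against hypothalamus, where 61%, 70% and 54.7% of all genes were called, so such calls were common in this panel. Il1r1 had a log2 level of 9.30 ± 0.16 (SD, n = 10) in the hippocampus, 7.08 ± 0.16 (n = 9) in the brain stem and 6.86 ± 0.26 (n = 7) in the hypothalamus. Its hippocampal samples lay above all others, by 2.45 against the hypothalamus (SE 0.11, adjusted p = 1.15e-24) and by 2.24 against the brain stem (SE 0.10, adjusted p = 8.72e-25). Groups that did not overlap were found for 26% and 33.1% of all genes in these comparisons. The brain stem and the hypothalamus did not differ beyond their spread for Il1r1 (difference 0.21, 95% CI -0.02 to 0.44, adjusted p = 0.117).

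Il1rap followed the order hippocampus, brain stem, hypothalamus, with log2 levels of 10.75 ± 0.18 (SD, n = 10), 10.06 ± 0.13 (n = 9) and 9.57 ± 0.21 (n = 7). All 3 steps were called, at 0.69 from hippocampus to brain stem (adjusted p = 5.75e-11) and 0.46 from brain stem to hypothalamus (adjusted p = 1.17e-05), with 1.16 between the ends (adjusted p = 8.46e-17). Il1b ran the other way, at 4.60 ± 0.35 in the brain stem (SD, n = 9), 4.15 ± 0.22 in the hypothalamus (n = 7) and 3.81 ± 0.41 in the hippocampus (n = 10). The brain stem exceeded the hippocampus by 0.77 (SE 0.14, adjusted p = 2.77e-06). The hypothalamus exceeded the hippocampus by 0.36 (adjusted p = 0.0362) and the brain stem the hypothalamus by 0.42 (adjusted p = 0.0197). With the mouse as a fixed block, which pairs regions of the same mouse, neither of these passed (adjusted p = 0.0513 and 0.0522), and with centring on reference genes the first did not (adjusted p = 0.144). With Ttr as a covariate the last difference was 0.21 (adjusted p = 0.357), and with values under 4 raised to 4 the hypothalamus exceeded the hippocampus by 0.10 (adjusted p = 0.375). With 1 mouse left out at a time, the call of hypothalamus over hippocampus held in 14 of 20 fits (adjusted p up to 0.125) and that of brain stem over hypothalamus in 18 of 20, the exceptions being mouse 22 and mouse 28 (adjusted p up to 0.108). Il1a, Il1rn, Il1r2 and Il1rl2 were not called between any regions in the main fit, with adjusted p values of at least 0.127. With 1 mouse left out at a time, the members called for hippocampus against brain stem ran from 3 to 4.

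The other genes of the pathway were taken as lists by role. Of 6 measured genes next to the receptor (Myd88 and the IRAK kinases among them) 0 were called in any tumor comparison within a region or over the 3 regions, with a median difference of 0.01 over the regions. Irak3, an inhibitory member of the IRAK family, had the smallest p value of these, at 0.12 over the regions (adjusted p = 0.557). Of 4 genes for MAP kinases and Jun 0 were called, and Mapk14, the p38 kinase, had the smallest p value, with a difference of 0.09 in the hippocampus (adjusted p = 0.784). Of 9 NF-kB subunits, inhibitors and kinases 1 was called, over the 3 regions alone, where 2.34% of all genes were called. It was Nfkbia, which encodes an NF-kB inhibitor that NF-kB itself induces, and it was higher by 0.24 in tumor-bearing mice (SE 0.067, adjusted p = 0.0445). It kept an adjusted p value under 0.05 in 7 of 20 fits that left out 1 mouse.

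Of 6 genes for processing and release of interleukin-1, 0 were called. Nlrp3, the inflammasome sensor, differed by -0.27 over the 3 regions (adjusted p = 0.124) and Casp4, a caspase of the non-canonical inflammasome, by 0.27 (adjusted p = 0.125). Of 12 genes known to respond to interleukin-1, 6 were on the panel and 2 were called in a tumor comparison. Of all genes, 0.52% were called in the hippocampus, 0.26% in the hypothalamus, 1.04% in the brain stem and 2.34% over the 3 regions. The list was chosen with earlier results of these data known, so its count is not independent of them. Lcn2, an iron-sequestering acute phase protein, was higher in tumor-bearing mice by 3.74 in the hippocampus, 3.31 in the brain stem and 2.62 in the hypothalamus, and the last of these passed in 10 of 17 fits that left out 1 mouse (adjusted p from 0.0176 to 0.128). Ptgs2, the cyclooxygenase that makes prostaglandin precursors in fever, was higher in the brain stem by 0.71 (SE 0.13, adjusted p = 0.0071) and over the regions by 0.40 (adjusted p = 0.0107). Both of these genes respond to other signals as well.

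Across the 56 samples, with each region's mean subtracted, the panel genes whose levels ran most like Il1r1 were Ptgs2 (Pearson r = 0.70) and Osmr, a receptor chain for oncostatin M (r = 0.69). The samples come from 20 mice and share tumor status and normalization, and with the means of the 12 groups subtracted the same pairs gave r = 0.53 and 0.54. Il1a was most like Pik3cg (r = 0.53) and Syk (r = 0.47), a pair of signalling kinases of immune cells. For Il1b the highest values were 0.40 with Spint1 and 0.34 with Tmem37. Among the members themselves, r ran from -0.34 for Il1a with Il1rl2 to 0.35 for Il1r1 with Il1rap, so the measured values did not vary as a block. Il1rn, Il1b and Il1r2 lay near the low end of the scale, where noise limits what r can show.

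**Figure D5:**
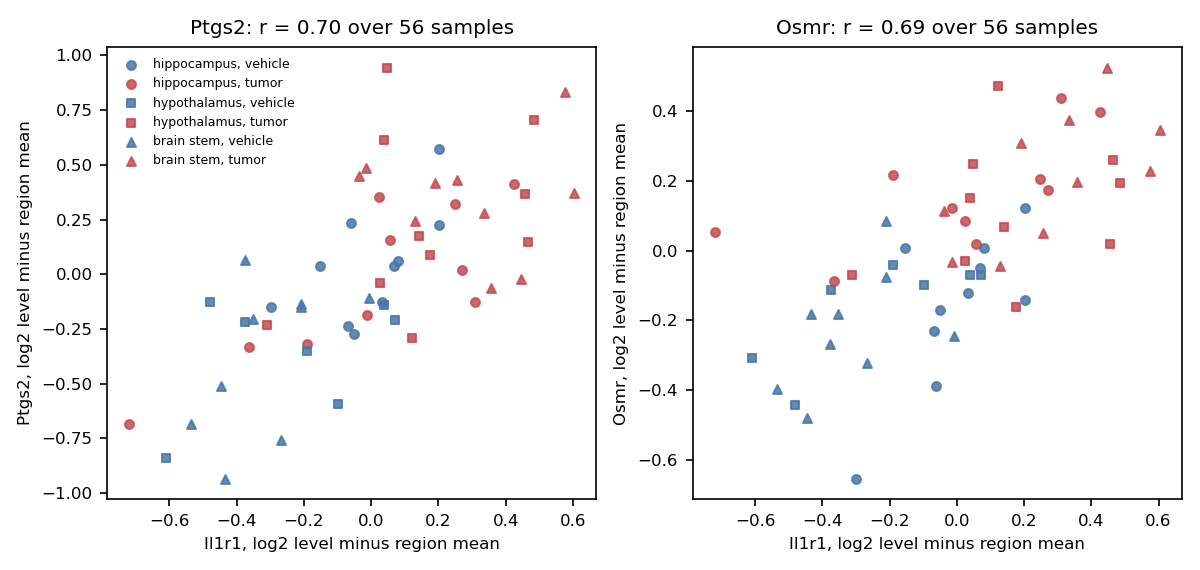
Il1r1 against Ptgs2 and Osmr in 56 samples, as log2 level minus the mean of the region. Blue points are vehicle injected and red points tumor-bearing mice, and shapes give the region. Points rise from lower left to upper right with r = 0.70 and r = 0.69, and vehicle injected brain stem samples gather at the lower left.

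Last, Il1r1 was set against spleen mass and total tumor mass in the 10 tumor-bearing mice, which ran from 0.184 to 0.269 g and from 2.31 to 5.00 g. Of 6 relations 0 passed adjustment. The relation with the smallest p value was to spleen mass in the hypothalamus, where Pearson's r was 0.73 (permutation p = 0.018, adjusted p = 0.108) and Spearman's rho 0.56 (permutation p = 0.0975, adjusted p = 0.585). Without the 2 mice farthest from the median spleen mass r was 0.47 (permutation p = 0.233), so the relation was weaker in the remaining 8 mice, which cover a narrower range of mass. With any 1 mouse left out r was 0.57 to 0.89, and the relation passed without mouse 3 (adjusted p = 0.00744). With phase means subtracted r was 0.75 (permutation p = 0.0123, adjusted p = 0.0737). In the brain stem r was 0.13 for spleen mass and 0.03 for tumor mass (permutation p = 0.712 and 0.94), and rho was 0.09 and -0.09 (permutation p = 0.813 and 0.811). In the hippocampus r was 0.06 and 0.09 and in the hypothalamus r was 0.32 for tumor mass, with permutation p values of 0.866, 0.808 and 0.362. The corresponding rho values were 0.18, 0.33 and 0.41 (permutation p = 0.632, 0.347 and 0.248).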

How the data were processed

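The nanoString nCounter Mouse Neuroinflammation Panel was run on RNA of 3 brain regions. The deposited log2 values were made by the authors from nCounter counts. Background was subtracted in nSolver, counts were scaled to positive controls and to the codeset, and Partek then applied a quantile normalization. Quantile normalization gives every sample nearly the same distribution, so differences are relative to the panel. Of 60 listed samples 56 were analysed. The brain stem of mouse 8 and the hypothalamus of mice 10, 12 and 32 had no values in the deposited matrix. All 4 were samples of vehicle injected mice, which left 3 in the hypothalamus of that group at mid-dark. Counts were not used.

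Samples were grouped by their labels, with the mouse as the replicate. Linear models with group means were fitted per region in R 4.3.3 with limma 3.58.1 (lmFit and moderated tests) on all genes that varied, with Benjamini-Hochberg adjustment. Models over the 3 regions took all samples, with the mouse as a random block, because samples with the same number come from the same mouse (consensus correlation 0.14). In all, 26 comparisons were made. The script was tested on simulated data. Relations to mass used 100000 two-sided permutations in Python 3.11.15 with NumPy 2.4.6, adjusted over 6 relations, and figures used matplotlib 3.10.9.

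All 7 members are named. From each pathway list the genes called in a tumor comparison, and otherwise the 1 or 2 with the smallest p values, are named, as are the 2 genes most like Il1r1, Il1a and Il1b by Pearson's r, and those most like Il1rap are not reported here. Marker genes of the endothelium and choroid plexus are named because their values stand beside a result. The members and lists were chosen with earlier results of these data known. Alternatives were an ordinary p value, fits on only the 2 groups compared, a filter on the mean log2 value (5 or more), values under 4 raised to 4, centring on 12 panel reference genes, quantile normalization within each region, the absorbance ratio (260 over 280 nm) as a covariate, other treatments of the mouse block and leaving out each mouse in turn. Ttr as a covariate was added after its range was seen. Sequences are from RefSeq, GRCm38.p6.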

Additional observations from a re-analysis of the deposited data

Results flagged for a closer look

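In 77 groups of 4 or 5 samples, 5 samples stood apart from the rest of their group by Dixon's 95% criterion, which chance alone meets in about 1 of 20 groups. Il1a was 3.62 in the brain stem of tumor-bearing mouse 1 at mid-light, with the other 4 mice between 4.83 and 5.10. Il1a was 3.87 in the hippocampus of vehicle injected mouse 4 at mid-dark, with the others between 5.32 and 5.80. Il1rap was 9.85 in the brain stem of tumor-bearing mouse 5 at mid-light, with the others between 10.12 and 10.18, and 9.30 in the hypothalamus of vehicle injected mouse 30 at mid-light, with the others between 9.52 and 9.56. Il1r2 was 3.32 in the hypothalamus of tumor-bearing mouse 3 at mid-dark, with the others between 4.18 and 4.47. Each of these samples was the lowest of its group. Mouse 5 also had the lowest Il1r1 of the tumor-bearing mice in the brain stem, at 7.36.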

How the results depend on the processing

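The number of members called was recomputed 701 times over 26 comparisons and stayed within 1.5 times the reported count in 683. In most comparisons the reported count was 0, and a count that stayed at 0 was taken as unchanged. A fall from 3 to 2 was also taken as unchanged. The total therefore says little about the comparisons in which a member was called, which are given below. The 1074 recomputed values kept their direction. They covered only members with an unadjusted limma p value under 0.05 in the main fit and list genes called in a tumor comparison. That choice favours a kept direction, and the other differences given above were not among them. For the brain stem, 1 member was called under every alternative, with an Il1r1 difference of 0.58 to 0.66 (adjusted p up to 0.00265). At mid-dark in the brain stem the count went from 0 to 1 with only the 2 groups compared, with only genes of mean log2 value 5 or more, with values under 4 raised to 4 and with Ttr as a covariate, and ran from 0 to 1 when each mouse was left out. Il1r1 passed there in 3 of 19 such fits, without the mid-light mice 2, 5 or 9 (adjusted p = 0.0494, 0.00831 and 0.0465, and up to 0.328 in the rest). At mid-light the count went from 1 to 0 with only the 2 groups compared. For the tumor effect in brain stem minus hippocampus it went from 0 to 1 with the filter on mean value and with the mouse as a fixed replicate block (a paired fit, 1 member called). It ran from 0 to 1 when a mouse was left out. Il1r1 passed in 3 of 20 such fits, without mouse 2, 8 or 11 (adjusted p = 0.0313, 0.0378 and 0.0208, and up to 0.395 in the rest). For brain stem against hypothalamus the count went from 2 to 1 with the filter on mean value, the fixed replicate block and Ttr as a covariate. It ran from 1 to 2 when a mouse was left out. The filter removes Il1b and so lowers that count by its construction. The cause of the other changes was not tested. For hippocampus against hypothalamus Il1b was lost with the fixed block (adjusted p = 0.0513), with centring (0.144) and with values under 4 raised to 4 (0.375). The fixed block changed Il1b in these 2 region comparisons and Il1r1 in the test above, and no other member's call. For hippocampus against brain stem the count ran from 3 to 4 when a mouse was left out.

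The relations of Il1r1 to mass changed sign in places. Without the 2 mice farthest from the median, r was -0.13 for spleen mass in the hippocampus, -0.14 for tumor mass in the hippocampus, -0.12 for tumor mass in the hypothalamus and -0.025 for spleen mass in the brain stem, with adjusted p values of at least 0.935. Leaving out 1 mouse, r ran from -0.081 to 0.17 for spleen mass and from -0.15 to 0.53 for tumor mass in the hippocampus, from 0.57 to 0.89 and from -0.14 to 0.50 in the hypothalamus, and from -0.062 to 0.40 and from -0.16 to 0.20 in the brain stem. The hypothalamic relation to spleen mass passed without mouse 3 (adjusted p = 0.00744) and under no other single omission. Il1rn, Il1b and Il1r2 lie near the low end of the scale, where noise limits what can be detected.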
